A study of Homo sapiens with 18 samples.

Results

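MYC sites on 1q, the long arm of human chromosome 1, were taken as all peaks of 9 MYC ChIP-seq peak lists on chromosome 1 that start at or above base 143500000 of build hg19, merged across lists where they overlapped by at least 1 bp. This gave 2194 regions of 43222 on chromosomes 1 to 22 and X. The short arm 1p, with peaks ending below base 121500000, held 2380 regions, and no region of chromosome 1 fell outside the arms. MYC chromatin immunoprecipitation followed by sequencing was performed in MCF10A, a single immortalised, non-tumour line of breast epithelial cells. Cells of every group carried ectopic MYC (pBABE-hygro-MYC), mutant PI3K (pMN-IRES-GFP-PI3KH1047R) and a tetracycline-inducible pLKO hairpin, and all received doxycycline at 2 µg/mL for 72 h. The hairpin was 1 of 2 directed at G9a, shG9a_1 or shG9a_4, or the scramble hairpin shSCR, with 3 biological replicates each. Ectopic and endogenous MYC cannot be told apart in these lists, no group lacks the plasmids or doxycycline, and the level of G9a was not measured in them. Each reaction used the homemade antibody N262, and libraries were single 50 bp reads. The 9 DNA inputs were not used here.

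MYC binds DNA as a dimer with MAX, with a preference for E-box sequences, and occupies promoters and enhancers that are already open. G9a (EHMT2) methylates lysine 9 of histone H3, a mark of silent chromatin, and G9a has been described as a partner of MYC in gene repression. The arm 1q has been reported as gained in MCF10A lines. A peak caller sets the reads at a site against an estimated local background, so the copy number of a region can enter both the signal and the background. Whether the inputs served as control for these lists is not stated, so the reads behind the background are not known. Copy number was not measured here, and its part in the values below was not tested.

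The 1q sites stood on a higher local background than 1p sites in every library and carried more reads, while their fold enrichment was close to that of 1p sites. Fewer of them were called in shG9a libraries than in shSCR libraries, as on 1p. The fall in peak number was smaller on 1q than on 1p in all 6 shG9a libraries, and this difference between the arms was no longer seen when lists of equal length were compared.

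The lists differ much in length: shG9a_1 replicate 1 held 113 peaks on chromosomes 1 to 22 and X, and the other shG9a lists ran from 11168 to 17454 peaks, against 20118 to 34738 in shSCR lists. The differences in peak number between shG9a and shSCR are given with and without shG9a_1 replicate 1. Read depth is not listed. The lowest background that a library's peaks share, which grows with depth and fragment length, was 0.361 to 1.03 expected fragments in shG9a libraries, against 0.408 to 0.488 in shSCR libraries, with shG9a_4 replicates 1 and 3 the highest at 0.796 and 1.03.

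Along 105.7 Mb of 1q between the limit of the arm and its last listed base, the merged regions lay at 20.8 per Mb, against 19.7 per Mb over 121.0 Mb of 1p. Of the 2194 regions on 1q, 810 were called in all 3 shSCR libraries and are termed reproducible, which is 36.9% of them. On 1p the figure was 768 regions or 32.3%, and over all chromosomes it was 32.9%. Regions called in a single library made up 34.6% on 1q, 38.9% on 1p and 38.8% over all chromosomes. Regions called in all 9 libraries numbered 8 on 1q and 5 on 1p, and 109 of the 43222 over all chromosomes. Regions called in shSCR libraries only numbered 1000 on 1q, or 45.6%, and 1193 on 1p, or 50.1%, against 49.4% over all chromosomes. Regions called in no shSCR library numbered 87 on 1q, or 3.97%, and 117 on 1p, or 4.92%, against 4.55% over all.

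The 1q regions ranged from 132 to 2333 bp in width, with a median of 291.5 bp, against 278.0 bp on 1p. Regions of at least 1000 bp made up 5.74% on 1q (126 regions), 3.32% on 1p (79 regions) and 4.19% over all chromosomes. Sites were clustered on both arms: 66.1% of 1q regions, and 68.4% of 1p regions, had another region within 10 kb. The densest 1 Mb windows of 1q lay at 156 to 157 Mb with 74 regions, at 153 to 154 Mb with 72 and at 155 to 156 Mb with 61, followed by 151 to 152 Mb with 58 and 201 to 202 Mb with 57. The stretch from 190 to 195 Mb held 16 regions. At the limits of the arms, the first 1q region (chromosome 1, 143743399 to 143743663) had a mean shSCR fold of 5.49 and was called in 1 shG9a library. The last 1p region (121484321 to 121485499) had a mean shSCR fold of 2.92 and was called in 4 shG9a libraries. This 1p region stood apart in background, which was 172, 256 and 167 times the lowest of its library in the 3 shSCR libraries.

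The 6 strongest 1q sites among those called in at least 5 of 6 shG9a libraries are given first. Calls in nearly all shG9a libraries were thus a condition of the pick, and all 6 sites were also in the list of 113 peaks. Strength is the mean percentile of a region by q-value within the 3 shSCR lists, and fold is the authors' enrichment over local background at the summit. The strongest of these regions (chromosome 1, 222638708 to 222639412, 705 bp) ranked 5 of all reproducible regions in the genome. Its fold was 5.72, 32.9 and 32.3 in shG9a_1 replicates 1 to 3 and 25.7, 36.4 and 14.8 in shG9a_4 replicates 1 to 3, against 50.4, 60.9 and 51.7 in the shSCR replicates. All 6 shG9a values lay below all 3 shSCR values. The next, at 245026090 to 245027137 (1048 bp), had folds of 5.62, 29.7, 37.1, 26.7, 40.1 and 35.7 in the same 6 shG9a libraries, against 58.5, 61.0 and 54.1 in shSCR libraries. The region at 158985089 to 158985599 had folds of 8.78, 23.3, 28.8, 24.4, 33.4 and 31.2 in shG9a libraries, against 47.8, 55.7 and 38.2 in shSCR libraries. Again no shG9a value reached the lowest shSCR value.

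The other strong 1q sites were at 226005208 to 226005739, 165796638 to 165798640 and 210001091 to 210001794, with mean shSCR folds of 37.1 ± 12, 42.8 ± 2.44 and 40.5 ± 10.0 (SD, n = 3). At 226005208 the folds were 8.85, 28.0, 17.6, 25.8, 34.2 and 26.1 in shG9a libraries, against 50.7, 32.3 and 28.2 in shSCR libraries. These groups overlapped. They also overlapped at 210001091, where the highest shG9a fold was 38.4 and the lowest shSCR fold 29.7. At 165796638 the highest shG9a fold was 31.3 and the lowest shSCR fold 40.1. These 6 regions were picked by their shSCR strength, so a lower shG9a value includes any fall back from a high pick, and no test is given for them singly here. The folds are also not adjusted for the overall level of a library. By peak height, described below for all kept regions, the log2 differences of shG9a from shSCR at these 6 regions lay between -0.97 and -0.77. With the median of all fitted regions set to 0 in each library, they lay between -0.13 and 0.07.

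The 3 widest 1q regions were also strong. The widest (154971635 to 154973967, 2333 bp) had folds of 13.6, 16.9, 9.47, 15.8 and 22.8 in the 5 longer shG9a lists, against 26.1, 24.7 and 19.6 in shSCR lists. The region at 244997102 to 244999399 (2298 bp) had 11.8 to 16.2 in those shG9a lists, against 21.7 to 24.9 in shSCR lists. The region at 211751031 to 211753293 (2263 bp) had 7.85 to 13.9 in shG9a lists, against 13.4 to 26.3 in shSCR lists. Only the region at 244997102 had separate groups among these 3 by fold.

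Local background set 1q apart from the other arm and from the other chromosomes, each taken whole. A background in expected fragments was recovered for each peak from its deposited fold and p-value, and is given as a multiple of the lowest background of the library. Its median over 1q peaks was 2.56, 2.55 and 2.62 in shG9a_1 replicates 1 to 3, 2.79, 2.52 and 2.35 in shG9a_4 replicates 1 to 3, and 2.97, 3.06 and 2.67 in the shSCR replicates. On 1p the same libraries had 1.53, 1.65 and 1.39, then 1.40, 1.67 and 1.45, and in shSCR 1.74, 1.92 and 1.37. The lowest 1q value of any library exceeded the highest 1p value of any library. The log2 ratio of 1q over 1p averaged 0.77 ± 0.15 (SD, n = 9) and was above 0 in 9 of 9 libraries (exact sign-flip permutation test over libraries, two-sided p = 0.00391, the smallest possible with 9).

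**Figure D1:**
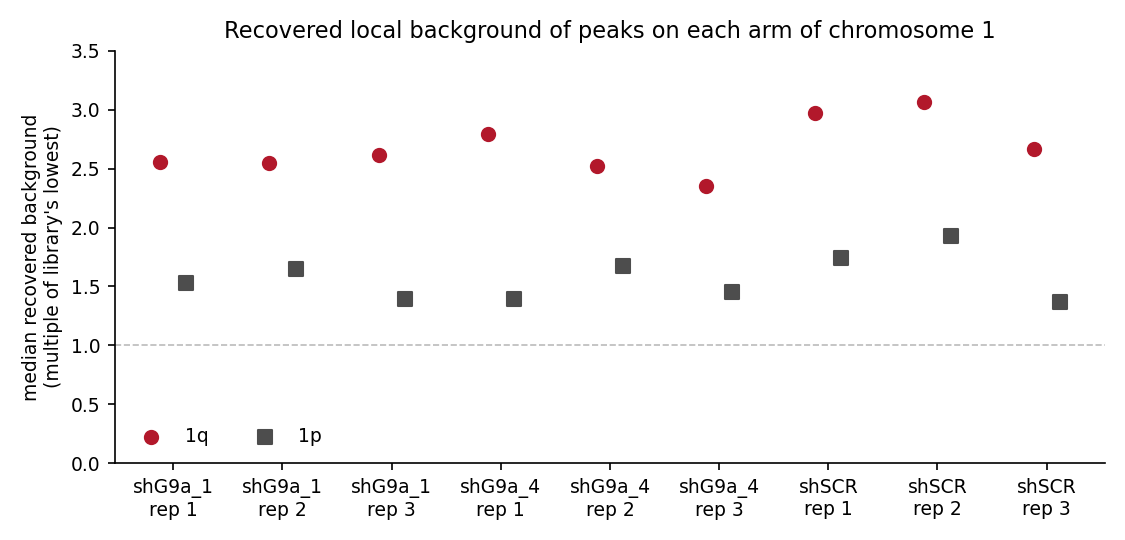
Median recovered background of the peaks on 1q (circles) and 1p (squares) in each of 9 MYC libraries, as a multiple of the lowest background of that library (dashed line at 1). All 1q values lie between 2.35 and 3.06 and all 1p values between 1.37 and 1.92.

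The background ratio did not separate the hairpin groups. The log2 of 1q over 1p was 0.76 ± 0.16 (SD, n = 6) in shG9a libraries and 0.80 ± 0.15 (SD, n = 3) in shSCR libraries, a difference of -0.04 (exact permutation test, two-sided p = 0.667). Over the 8 libraries other than shG9a_1 replicate 1, the background was 2.69 ± 0.24 on 1q and 1.57 ± 0.20 on 1p (SD, n = 8), and the ratio was 1.73 ± 0.19. Among 24 units (1p, 1q, chromosomes 2 to 22 and X), 1q had the highest median in 8 of these 8 libraries. Of these units only chromosome 1 was split into arms. The other 23 ran from 1.21 on chromosome X to 2.02 on chromosome 5, with 1.90 on chromosome 8 and 1.65 on chromosome 20. Against all peaks on the rest of the genome, the log2 ratio of the 1q median was 0.73 over all 9 libraries (exact sign-flip permutation test, two-sided p = 0.00391). Peaks at the lowest background of their library made up 0.240% of peaks on 1q, 8.73% on 1p, 2.44% on chromosome 5 and 28.9% on chromosome X, as means of the 8 libraries.

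Within 1q the background was not even. In 5 Mb windows it lay between 2.22 and 2.51 from 145 to 200 Mb and between 2.90 and 3.31 from 200 Mb to the end of the arm. In 1 Mb windows it was 2.61 at 198 to 199 Mb and 2.28 at 199 to 200 Mb (from 5 libraries with a peak there), then 3.00 at 200 to 201 Mb and 3.33 at 201 to 202 Mb. Windows along 1p up to 120 Mb stayed between 1.37 and 1.78. Taken as 2 stretches, with the point of 200 Mb chosen after the windows were seen and so without a test, the outer stretch of 1q had 3.11 ± 0.27 and the inner stretch 2.45 ± 0.24 (SD, n = 8). The ratio of outer to inner was 1.24 to 1.33 in each of the 8 libraries. The inner stretch of 1q thus also lay above 1p.

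**Figure D2:**
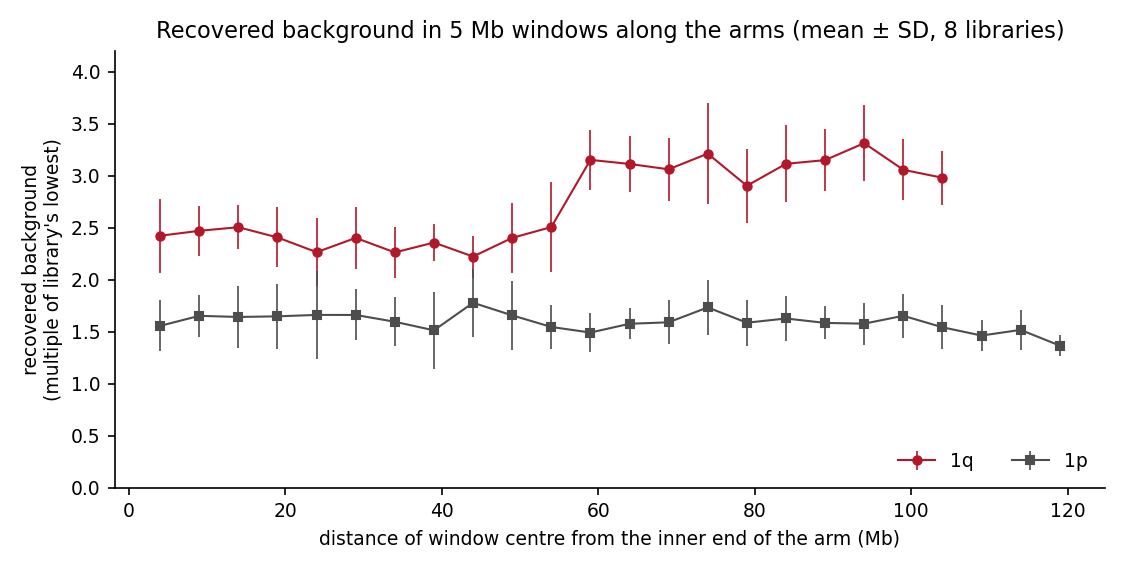
Recovered background in 5 Mb windows of 1q (circles) and 1p (squares) with at least 60 peaks, against the distance of the window's centre from the inner end of the arm in Mb; points are means and bars SD of 8 libraries. Windows of 1q run near 2.4 up to about 57 Mb from the inner end and near 3.1 beyond it, and 1p stays between 1.37 and 1.78.

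Site density was higher in the outer stretch, and the shares of sites lost or kept in shG9a libraries were close in both. Merged regions lay at 23.8 per Mb from 200 Mb on and at 18.1 per Mb before it. Reproducible regions lay at 8.92 per Mb in the outer stretch and at 6.57 per Mb in the inner. Of the reproducible regions, 7.52% of 439 in the outer stretch and 7.55% of 371 in the inner were called in no shG9a library, and 40.5% and 43.7% in 5 or 6 of them. Gene density along the arm was not examined, and its part in the site numbers was not tested.

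The read signal at 1q peaks was also higher than at 1p peaks. The median recovered pileup, the number of fragments over the summit, was 14.5, 12, 14, 18, 14 and 20 on 1q in the 6 shG9a libraries and 15, 16 and 14 in the shSCR libraries. On 1p it was 10, 9, 11, 13, 11 and 15 in the shG9a libraries and 11, 12 and 10 in the shSCR libraries. The log2 of 1q over 1p was 0.43 ± 0.06 (SD, n = 9; exact sign-flip permutation test, two-sided p = 0.00391, 9 of 9 libraries above 0).

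Fold enrichment did not separate the arms. Median fold on 1q was 8.19, 6.48, 6.40, 5.96, 6.55 and 5.81 in the 6 shG9a libraries and 6.53, 6.51 and 6.91 in the shSCR libraries. On 1p it was 6.44, 6.40, 6.75, 6.37, 6.83 and 6.46 in the shG9a libraries and 6.45, 6.53 and 6.88 in the shSCR libraries. The log2 of 1q over 1p averaged -0.0003 ± 0.14 (SD, n = 9; exact sign-flip permutation test, two-sided p = 0.996), with 4 of 6 shG9a libraries and 1 of 3 shSCR libraries below 0. Without shG9a_1 replicate 1, whose 1q median rests on 8 peaks, it was -0.04 ± 0.06 (SD, n = 8). The deposited fold adds 1 to both pileup and background. With nothing added, the median ratio of pileup to local background was 10.6 ± 1.62 on 1q and 14.1 ± 2.32 on 1p (SD, n = 8), lower on 1q by 0.41 on the log2 scale in those 8 libraries. Over all 9 libraries this log2 difference was -0.36 ± 0.14 (exact sign-flip permutation test, two-sided p = 0.00391). Every peak had passed the caller's threshold, which asks for more reads where the background is higher, so these medians describe listed peaks and not all binding. With Benjamini-Hochberg adjustment over the 5 exact permutation tests of 1q against 1p in 9 libraries, the p of background, pileup, peak density and pileup over local background was 0.00488 each, and that of fold stayed at 0.996.

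**Figure D3:**
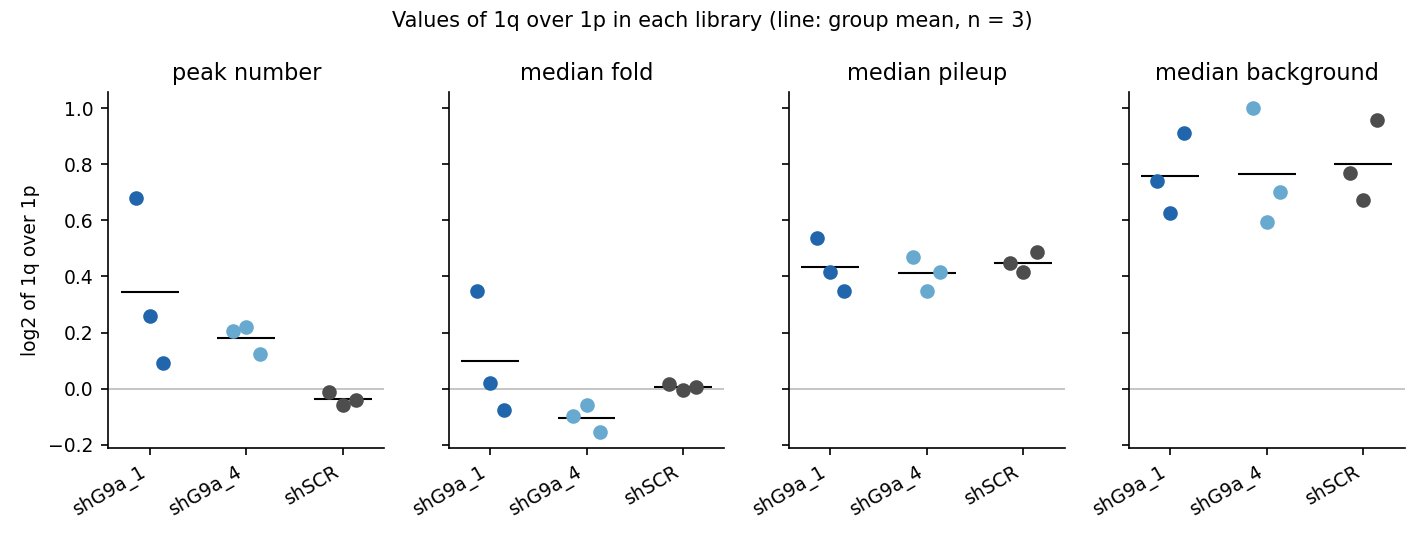
Log2 of 1q over 1p for peak number, median fold, median pileup and median background in each library, by hairpin; lines are group means (n = 3). Peak number is above 0 in all 6 shG9a libraries and below 0 in all 3 shSCR libraries, fold scatters about 0, and pileup and background are above 0 in all 9.

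The number of 1q peaks was lower in shG9a libraries. The lists held 8, 674 and 743 1q peaks in shG9a_1 replicates 1 to 3 and 671, 1047 and 746 in shG9a_4 replicates 1 to 3, against 1613, 1832 and 1074 in the shSCR replicates. All 6 shG9a numbers lay below all 3 shSCR numbers. The mean was 648 ± 343 in shG9a libraries (SD, n = 6) and 1506 ± 390 in shSCR libraries (SD, n = 3), a difference of -858 peaks or -57.0% (exact permutation test, two-sided p = 0.0238, the smallest that 6 against 3 allows). Without shG9a_1 replicate 1 the shG9a mean was 776 ± 156 (SD, n = 5), a difference of -730 peaks or -48.5% (exact permutation p = 0.0357). By hairpin, the difference from shSCR was -1031 peaks for shG9a_1 and -685 for shG9a_4, each with an exact permutation p of 0.1, the smallest that 3 against 3 allows. For shG9a_1 it was -798 peaks without its replicate 1. Fewer peaks from a shallower or poorer library and fewer bound sites cannot be told apart from a peak number.

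On 1p the lists held 5, 563, 697, 582, 900 and 685 peaks in the shG9a libraries, against 1627, 1908 and 1106 in shSCR libraries, a change of -63.0% in the mean and of -55.7% without shG9a_1 replicate 1. The number on 1q over that on 1p was 1.60, 1.20, 1.07, 1.15, 1.16 and 1.09 in shG9a libraries, against 0.991, 0.960 and 0.971 in shSCR libraries. The groups did not overlap. The log2 of this ratio was 0.26 ± 0.21 in shG9a libraries (SD, n = 6) and -0.04 ± 0.02 in shSCR libraries (SD, n = 3), a difference of 0.30 (exact permutation test, two-sided p = 0.0238). Adjusted over the 4 permutation tests of shG9a against shSCR, this p and that of the 1q peak number were 0.0476 each. Without shG9a_1 replicate 1 the shG9a value was 0.18 ± 0.07 (SD, n = 5) and the difference 0.22 (exact permutation p = 0.0357). With each of the 8 longer lists limited to its 11168 peaks of best q-value, the difference was -0.05 (exact permutation test, two-sided p = 0.357), and that in 1q peak number was -25.6 peaks (p = 0.107 by the same test). The excess of 1q in the shG9a lists was thus seen with lists at their full length and not with lists of equal length. The cut fixes the total of each list, so the 1q number can then move only as a share of that total. It does not match the libraries in depth.

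Peaks per Mb were higher on 1q than on 1p in 9 of 9 libraries. The ratio was 1.39 ± 0.22 in shG9a libraries (SD, n = 6; 1.3 ± 0.06 without shG9a_1 replicate 1) and 1.11 ± 0.02 in shSCR libraries (SD, n = 3). Its log2 over all libraries was 0.36 ± 0.23 (SD, n = 9; exact sign-flip permutation test, two-sided p = 0.00391). It was 0.81 with the first 30 Mb of 1p left out and 0.17 with 1q taken from 160 Mb on, so the size of the density difference depended on which stretches were counted.

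Set against 1p and the other chromosomes taken whole, 1q had the highest change in relative peak number between shG9a and shSCR libraries. The log2 of peaks on a unit over peaks on the rest of the genome changed by 0.14 on 1q between shG9a (n = 5) and shSCR (n = 3) libraries, the highest of 24 units, followed by 0.12 on chromosome 19 and 0.11 on chromosome 16. It changed by -0.09 on 1p and by -0.48 on chromosome X. Over the 24 units this change and the background had a Spearman rho of 0.12, and -0.14 over the 22 units other than 1q and X. The units come from the same 8 libraries, so this is a description. Only chromosome 1 was split, so 1q was not compared with single arms of other chromosomes. Chromosomes 5 and 8, next after 1q in background, changed by 0.01 and -0.05. Chromosome X, the lowest in background, had the lowest change. The part of background in these changes was not tested.

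**Figure D4:**
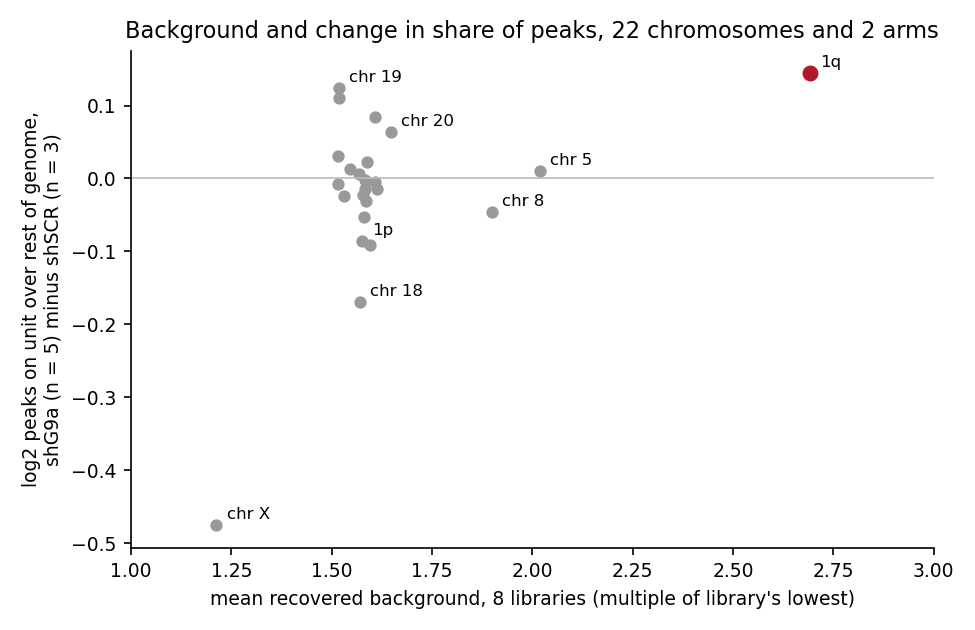
Mean recovered background (multiple of the library's lowest, 8 libraries) against the log2 change in peaks on a unit over peaks on the rest of the genome, shG9a (n = 5) minus shSCR (n = 3), for 1p, 1q, chromosomes 2 to 22 and X. The arm 1q lies at 2.69 and 0.14, chromosome X at 1.21 and -0.48, and the other units lie between 1.52 and 2.02.

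The share of reproducible regions called in a shG9a library was higher on 1q than on 1p in each library, with a p above 0.05 after adjustment. The share of the 810 regions of 1q that was called was 0.988% in shG9a_1 replicate 1, against 0.651% of the 768 regions of 1p and 0.767% of 14209 over all chromosomes. In shG9a_1 replicate 2 it was 61.0% on 1q, 54.0% on 1p and 57.7% over all, and in replicate 3 it was 68.9%, 63.9% and 64.5%. In shG9a_4 replicates 1 to 3 it was 63.1%, 80.6% and 68.4% on 1q, 56.6%, 72.5% and 65.2% on 1p, and 58.3%, 77.3% and 66.3% over all. The 1q share was the higher of the arms in 6 of 6 libraries, by 4.99 percentage points on average (SD 2.85, n = 6; exact sign-flip permutation test, two-sided p = 0.0312, the smallest that 6 allow). Adjusted over the 2 tests of the share called, its p was 0.0625, above the threshold of 0.05. As the unadjusted p was already the smallest that 6 libraries allow, this adjusted p cannot decide whether the arms differ.

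The arms also differed in the strength of these regions: the median percentile in the shSCR lists was 72.1 on 1q, 65.0 on 1p and 66.9 over all, while the median shSCR fold was 8.62, 8.61 and 8.77. At like strength, with each decile of all reproducible regions weighted equally, the share called differed between 1q and 1p by -0.18 points (exact sign-flip permutation test, two-sided p = 0.906), ranging from -3.15 to 3.22 over the 6 libraries. Matched on shSCR fold in place of q-value strength, it differed by 4.33 points (exact sign-flip permutation p = 0.0312, not adjusted). In the weakest decile 20.8 ± 7.37% of 48 regions on 1q and 18.8 ± 9.77% of 85 on 1p were called in the 5 longer shG9a lists. In the strongest decile the shares were 99.6 ± 0.48% of 114 regions on 1q and 99.7 ± 0.61% of 73 on 1p (SD, n = 5). Between these the sign of the difference varied: in decile 2 it was 33.3 ± 12.8% on 1q and 27.8 ± 7.96% on 1p, in decile 5 it was 54.5 ± 16.1% and 62.9 ± 11.6%, and in decile 6 it was 69.1 ± 9.86% and 64.8 ± 13.6%. These SDs are between libraries. Both arms were read in the same 5 lists, so the SDs do not measure the spread of the gap between the arms.

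**Figure D5:**
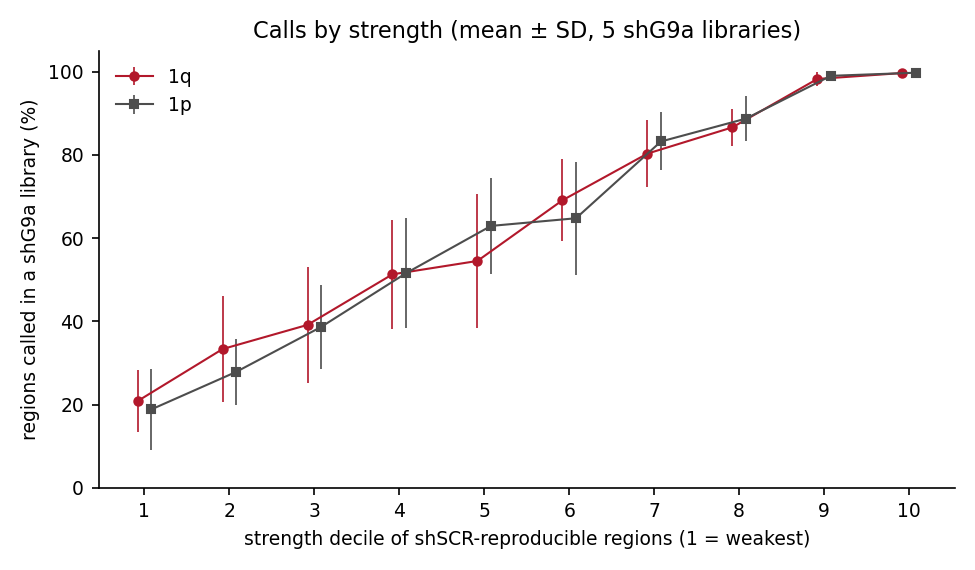
Share of shSCR-reproducible regions called in a shG9a library, by decile of strength, on 1q (circles) and 1p (squares); points are means and bars SD of 5 shG9a libraries without shG9a_1 replicate 1. Both arms climb from about 20% in the weakest decile to over 99% in the strongest. The bars overlap throughout, but both arms come from the same lists, so the bars do not measure the spread of their difference.

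Over both hairpins, 340 of the 810 reproducible regions on 1q were called by 5 or 6 of the shG9a lists (kept), which is 42.0% (95% Wilson interval 38.6 to 45.4). On 1p 271 of 768 were kept, or 35.3% (32.0 to 38.7), and over all chromosomes 36.9%. Regions called in no shG9a library (lost) numbered 61 on 1q, or 7.53% (5.91 to 9.56), and 79 on 1p, or 10.3% (8.33 to 12.6), against 9.49% over all. The remaining 409 on 1q, or 50.5% (47.1 to 53.9), and 418 on 1p, or 54.4% (50.9 to 57.9), were called in 1 to 4, against 53.6% over all. The intervals cover counting error only and treat regions as independent, and no test between the arms is drawn from them. Among 1p and the other chromosomes taken whole, only chromosome 16, at 43.5%, kept a larger share than 1q. Without shSCR replicate 3, the shortest shSCR list, 268 regions on 1q and 306 on 1p were lost, since more regions then count as reproducible. Without shSCR replicate 1, 103 on 1q and 132 on 1p were lost, and without shG9a_4 replicate 2, 103 on 1q. The share over all chromosomes was not taken for these counts.

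Of the 87 regions on 1q that no shSCR library held, 0 were called in at least 2 of 3 replicates of both hairpins (gained), which allows a share of up to 3.45%. On 1p it was 0 of 117, which allows up to 2.56%, and over all chromosomes 4 of 1965 or 0.204%.

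Lost 1q sites were weaker than kept ones in shSCR libraries, and their merged regions were narrower. Median shSCR fold was 6.07 in lost, 7.45 in partly kept and 13.4 in kept 1q regions, and 6.05, 7.60 and 14.1 on 1p. Median width of the merged regions was 334.0, 445.0 and 758.5 bp for the same classes on 1q. A lost region spans peaks of shSCR lists only, and a kept region also those of shG9a lists. These widths are thus not of like spans. The strongest lost 1q region (chromosome 1, 218599057 to 218599368, 312 bp) had folds of 8.46, 14.6 and 10.5 in shSCR replicates 1 to 3 and ranked 3278 of 14209. The next were at 228103462 to 228103749, with folds of 8.27, 12.4 and 8.82, and at 209625589 to 209625913, with 9.80, 6.34 and 8.82. Those at 208417523 to 208417961, 220263008 to 220263330 and 227950149 to 227950502 had mean shSCR folds of 7.97 ± 2.04, 7.34 ± 1.59 and 7.43 ± 1.55 (SD, n = 3). All 6 of these lost regions lay beyond 200 Mb, at widths of 288 to 439 bp. This did not hold for lost 1q regions as a whole: of 61, 33 lay from 200 Mb on and 28 before it.

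At the 340 kept 1q regions peak height was lower in shG9a libraries on a scale that does not adjust for the overall level of a library. Height is the pileup divided by the library's lowest background, and these regions were called in the 8 libraries other than shG9a_1 replicate 1. Median height on 1q was 43.2 and 43.5 in shG9a_1 replicates 2 and 3 and 28.9, 52.4 and 27.2 in shG9a_4 replicates 1 to 3, against 68.1, 81.9 and 65.0 in the shSCR replicates. The groups did not overlap. On 1p the medians over 271 regions were 35.1, 35.3, 22.6, 44.1 and 22.3 in the same shG9a libraries, against 53.6, 65.5 and 51.5 in shSCR libraries. By limma with Benjamini-Hochberg adjustment over the 5245 regions called in these 8 libraries, 271 of 340 were lower in shG9a on 1q and 210 of 271 on 1p at an adjusted p below 0.05, against 76.6% over all. With each pileup divided by its own local background 5 passed on 1q and 10 on 1p, against 2.75% over all. Without shG9a_4 replicates 1 and 3, the libraries with the highest values of the lowest background, 129 passed on 1q and 102 on 1p, against 37.5% over all. On the first scale none was higher on either arm, against 0.0% over all, and every difference on either arm was negative. The median log2 difference was -0.88 on 1q, -0.85 on 1p and -0.85 over all. The median standard error was 0.327 for each of these. A shift between libraries that the regions share is counted once per region on this scale, so the numbers of regions passing are not independent results. Without shSCR replicate 2, 23 regions on 1q and 22 on 1p passed, against 7.59% over all. Without shG9a_1 replicate 2, shG9a_1 replicate 3 or shSCR replicate 1, 156, 173 and 159 on 1q passed. These were 45.9%, 50.9% and 46.8% of the 1q regions, against 43.9%, 45.9% and 46.0% over all.

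With the median of all fitted regions set to 0 in each library, the height differences on 1q centred on -0.04 and those on 1p on -0.01. After this centring limma found 0 of 340 regions lower and 0 higher on 1q, with 24 at an unadjusted p below 0.05. It found 0 of 271 in either direction on 1p, with 30 at an unadjusted p below 0.05. Over all regions 0.0191% were lower and 0.0763% higher. The most negative centred 1q difference was at 226966279 to 226966687 (log2 -0.75, limma adjusted p = 0.165), where height was 32.4, 29.0, 18.8, 46.2 and 24.2 in the shG9a libraries, against 104.9, 114.7 and 56.4 in shSCR libraries. Those at 179198081 and 209212711 had -0.63 and -0.62. The most positive was at 160078684 to 160079041 (log2 0.82, limma adjusted p = 0.111), with heights of 51.3, 91.2, 59.1, 109.1 and 54.3 in shG9a libraries, against 53.6, 77.8 and 83.4 in shSCR libraries. These groups overlapped. Those at 204119302 and 179051823 had 0.69 and 0.66. Without shSCR replicate 3, 1 region on 1q was lower and 1 higher after centring, and 0 on 1p, against 0.0763% lower and 0.286% higher over all.

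Kept 1q sites were higher than kept 1p sites in each of the 8 libraries on this scale. The log2 difference of the medians, 1q minus 1p, was 0.30 ± 0.04 in shG9a libraries (SD, n = 5) and 0.33 ± 0.01 in shSCR libraries (SD, n = 3). Over the 8 libraries it was 0.31 ± 0.03 (exact sign-flip permutation test, two-sided p = 0.00781, the smallest that 8 allow). With each pileup divided by its own local background in place of the library's lowest, the sign turned to -0.44 ± 0.05 in the same 8 libraries (exact sign-flip permutation p = 0.00781). The difference between the arms in height changed by -0.04 between shG9a and shSCR libraries (exact permutation test, two-sided p = 0.179).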

How the data were processed

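MYC peak lists of 9 libraries were analysed. Tools named in the submitters' processing notes, with no step given, are MACS2 2.1.0, Picard 2.7.1, STAR 2.5.2a and SAMtools 1.3, with hg19 and GRCh37 as builds. The authors deposited, per peak and per library with no pooling, a fold enrichment (a ratio at the summit), −log10 p-values and −log10 q-values, and a whole-number score that was not used. No source used here gives the settings of the caller. Of 151062 peaks, 192 on other contigs were left out.

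For a Poisson caller, fold equals (pileup + 1)/(background + 1), and fold with p fixes a whole-number pileup. In each list at least 99.99% of peaks had such a solution, with −log10 p matched to within 0.001. The lowest background of a library is the lowest value shared by at least 1% of its peaks. This step and the tests were checked on simulated data.

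Libraries, not peaks, were the unit of each exact permutation or sign-flip test (Python 3.11.15, scipy 1.17.1). Heights were fitted with limma 3.58.1. Nothing in the labels ties a replicate number to a shared day or batch, and p-values measure the spread between these libraries. Regions named were the 6 strongest kept, the 6 strongest lost, the 3 widest and the 3 most negative and positive by centred height, with those nearest the limits of the arms. Members, lists and comparisons were chosen with earlier results of these data known; pileups, the height ratio of the arms and comparisons with other chromosomes were added after seeing the data. No hg19 sequence or annotation was used, so sequences, genes and E-boxes were not analysed here.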

Additional observations from a re-analysis of the deposited data

Results flagged for a closer look

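The peak list of shG9a_1 replicate 1 stood apart from the other 5 shG9a libraries in 4 of 8 measures of the 1q sites, by the gap to its nearest neighbour relative to the range of the group. It held the lowest number of 1q peaks, 8. It had the highest log2 of 1q over 1p peak number, 0.68, and the highest log2 of 1q over 1p median fold, 0.35. It called the lowest share of reproducible 1q regions, 0.988%. Chance flags about 1 in 20 groups, and these 4 values come from a single list, so they are not independent.

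The log2 of 1q over 1p peak number differed between shG9a and shSCR libraries by 0.30 (exact permutation test, two-sided p = 0.0238, 6 of 6 shG9a libraries above all 3 shSCR libraries). It was 0.22 without shG9a_1 replicate 1 (exact p = 0.0357), 0.33 at −log10 q of at least 5 (exact p = 0.0714), 0.19 at fold of at least 5 (exact p = 0.214) and -0.05 with lists of equal length (exact p = 0.357). The background ratio of the arms, set beside it, differed by -0.04 (p = 0.667 by the same exact test).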

How the results depend on the processing

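The higher background, pileup and peak density of 1q over 1p kept their sign and stayed past the 0.05 threshold of their exact permutation tests under every list, arm and library alternative that was run. With lists of equal length the change in 1q peak number was -25.6 (p = 0.107, exact permutation) and the log2 differences of 1q over 1p peak number were -0.0525 for both hairpins together, -0.0563 for shG9a_1 and -0.0499 for shG9a_4. There the fold difference of the arms was -0.0566 (p = 0.0312, exact), its shG9a minus shSCR difference 0.00867 and that of the background 0.0465. The share called differed by 0.35 points. On 1q 432 regions were reproducible, 9 lost, 77 partly kept and 3 gained, and on 1p 332, 4, 63 and 1. The lost share was then higher on 1q than on 1p, the reverse of the full lists, though it rests on few regions. No share over all chromosomes was taken for these counts. With −log10 q of at least 5 the log2 number difference was 0.33 (p = 0.0714, exact) and the share called differed by 2.92 points. With fold of at least 5 these were 0.19 (p = 0.214, exact) and -0.16 points, the share at like strength differed by -6.52 points (p = 0.0312, exact), the fold difference was 0.0486 and its shG9a minus shSCR difference 0.0275. The fold difference was 0.0026 without the ends near the centromere and 0.0057 by upper quartile. In reproducible regions alone the background difference between hairpin groups was 0.0290. Matching on shSCR fold gave a share 4.33 points higher on 1q.

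Leaving out each library in turn, the 1q number difference ran from -1074 to -695 and the log2 number difference from 0.22 to 0.33; with 2 shSCR libraries left no p below 0.05 is possible. The share called differed by 4.45 to 5.92 points, with 5 libraries likewise too few, and by -1.77 to 0.43 points at like strength. The fold difference ran from -0.0438 to 0.0188, its shG9a minus shSCR difference from -0.0790 to 0.0212 and that of the background from -0.103 to 0.0410. Lost regions ran from 61 to 268 on 1q and 79 to 306 on 1p, gained on 1q from 0 to 1 and reproducible on 1p from 767 to 1179. For these counts too no share over all chromosomes was taken. Regions lower in shG9a by limma ran from 23 to 333 on 1q and 22 to 264 on 1p, against 7.59% to 97.4% over all.

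By limma, 129 regions on 1q and 102 on 1p were lower without shG9a_4 replicates 1 and 3, against 37.5% over all. With pileup over its own local background the counts were 5 and 10, against 2.75% over all. The counts were 0 and 0 when centred, when centred with the replicate block and when centred on the local scale. The height of 1q over 1p was -0.44 on the local scale. With a replicate block, the permutation p of the 1q number difference of -858 and of the log2 number difference of 0.30 was 0.0741 each. That is the smallest p that this block allows. With that block limma found 311 lower regions on 1q and 241 on 1p, against 88.3% over all. Same-numbered libraries were correlated in height by -0.02 to 0.15 (median 0.05) and other pairs by -0.14 to 0.08 (median -0.04). Heights were taken as deviations from the means of small groups, which ties these correlations to each other, so they cannot decide on pairing. The numbers were not read as pairs because no label ties them to a shared day or batch. The cause of the changes between settings was not tested. Tests on genes, promoters and E-boxes were not run. Recovered values exist only at listed peaks, and read depth is unknown.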
